A study of Mus musculus with 12 samples.

Results

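Rpl3 and Rpl3l encode 2 forms of the same protein of the large ribosomal subunit, and both were read across 12 mouse heart arrays. The members were the rows of the deposited value table to which the platform annotation gives exactly 1 gene symbol, that symbol being Rpl3 or Rpl3l. This gave 17 of 241576 rows, 10 for Rpl3l and 7 for Rpl3, and 2 of the 20352 genes that could be named. The genes were chosen by the difference in Rpl3l between infarcted and sham hearts, which was among the strongest decreases, so the differences of both genes between the groups are given as a description, with no test. No row carried several symbols with Rpl3 or Rpl3l among them.

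The sham group was 6 hearts of C57BL/6J mice, 12 weeks old, that had sham surgery, and tissue came from the site that matches the infarct border. The infarcted group was 6 hearts of mice of the same strain and age, and tissue came from the border zone, which lies beside the scar. In both groups the tissue was taken 2 weeks after the operation. The labels give no genotype, sex or drug and do not say how the infarct was made, and the series text calls the samples biological replicates. Each RNA was measured on a one-colour array with biotin label, and signal is on a log2 scale, on which a step of 1 is a doubling.

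Protein L3, the product of Rpl3, sits in the core of the large subunit and reaches towards the peptidyl transferase centre, where amino acids are joined. Most cells make only the Rpl3 form. Adult heart and skeletal muscle instead express the close relative Rpl3l at a high level, and in skeletal muscle the balance is known to move from Rpl3l to Rpl3 under growth stimuli. Loss of the human RPL3L gene is linked to cardiomyopathy in early life.

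The RefSeq promoter table (GRCm38.p6) held 2 start sites for Rpl3l, and the 250 bases before each are shown because Rpl3l is the member with the larger difference. The rows do not tell which start was used in these hearts. The first lies at chr17:24727576-24727825 on the plus strand, between Ndufb10 and the first base of Rpl3l. The second lies at chr17:24732435-24732684 on the plus strand, inside Rpl3l. Capitals mark matches, on either strand, to 5 motifs known from muscle genes.
Rpl3l start 1: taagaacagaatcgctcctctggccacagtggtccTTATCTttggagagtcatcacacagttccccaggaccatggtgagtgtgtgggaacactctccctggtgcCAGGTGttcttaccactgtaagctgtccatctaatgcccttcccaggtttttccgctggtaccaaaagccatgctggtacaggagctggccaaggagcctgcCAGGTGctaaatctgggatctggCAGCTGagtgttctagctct
Rpl3l start 2: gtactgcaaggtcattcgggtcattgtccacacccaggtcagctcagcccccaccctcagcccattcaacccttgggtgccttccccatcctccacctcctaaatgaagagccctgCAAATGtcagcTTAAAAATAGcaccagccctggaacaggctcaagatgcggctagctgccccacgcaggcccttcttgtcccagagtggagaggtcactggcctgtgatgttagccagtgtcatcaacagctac

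Before start 1 there were 3 E-boxes (CANNTG, the letters bound by myogenic helix-loop-helix factors). At least 1 E-box was found in 66.2% of all 32851 promoter windows of this length. The same window held 1 GATA motif (AGATAA), found in 9.99% of windows. Before start 2 there was 1 E-box and 1 match to the MEF2 consensus, the letters of a family of muscle transcription factors, found in 2.92% of windows. Neither window held the MCAT motif (CATTCC), found in 12.6% of windows, or a CArG box, found in 1.47%. No 2 matches overlapped. A match is a description of the letters and not a measured binding site.

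Rpl3l signal was lower in every infarcted heart than in any sham heart. The gene value, the median over its 10 rows, ran from 10.18 to 10.49 in sham hearts with a median of 10.39. In infarcted hearts it ran from 8.77 to 9.61 with a median of 9.21. The groups were separated by 0.56 on the log2 scale. Group means were 10.37 ± 0.10 and 9.18 ± 0.35 (SD, n = 6 each). The difference was -1.18 ± 0.15 (SE), which leaves 44.1% of the sham signal. Of all genes, 9 had a lower difference.

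Rpl3 signal was higher in every infarcted heart than in any sham heart. It ran from 10.21 to 10.72 in sham hearts with a median of 10.53. In infarcted hearts it ran from 10.97 to 11.43 with a median of 11.10, and the gap between the groups was 0.25. Group means were 10.49 ± 0.18 and 11.16 ± 0.18 (SD, n = 6 each). The difference was 0.67 ± 0.10 (SE), or 159% of the sham signal, and 658 genes had a higher one. Infarcted groups without overlap lay below sham in 5.29% of all genes and above sham in 5.97%.

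The difference between the 2 genes within an array, Rpl3l minus Rpl3, removes any factor common to both. It ran from -0.41 to 0.18 in sham arrays and from -2.66 to -1.52 in infarcted arrays. Its mean moved by -1.85 ± 0.20 (SE, n = 6 per group), a 3.6-fold shift in the ratio of the signals. Signals of different probes cannot be set against each other, so the ratio itself does not say which RNA was more abundant. Only its shift between groups is read here.

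**Figure D1:**
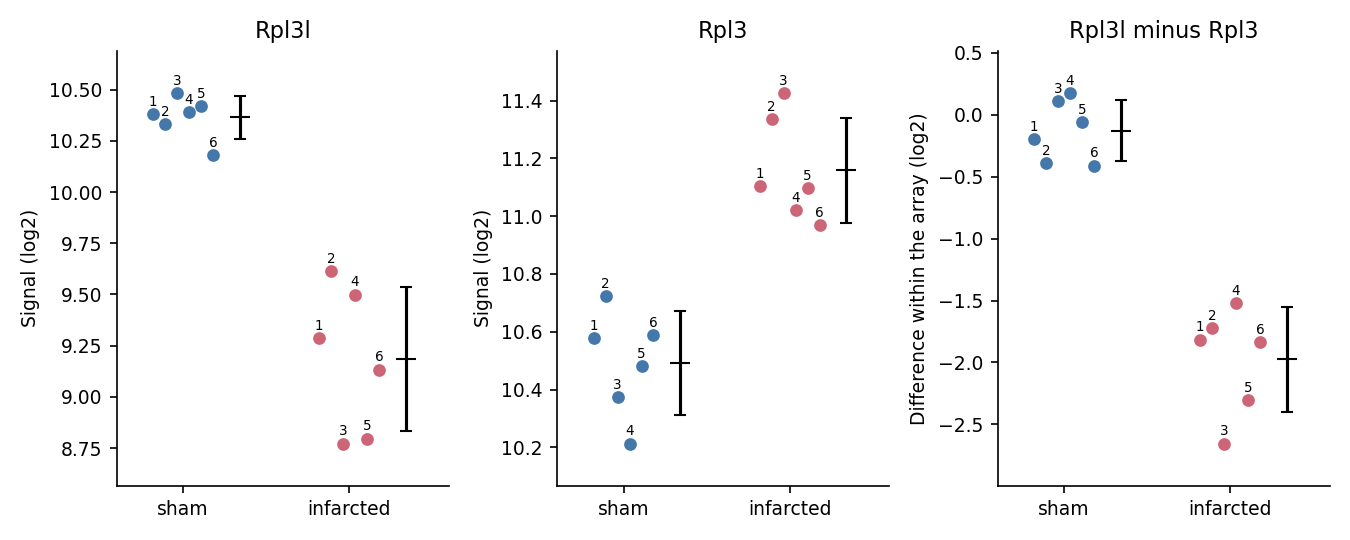
Gene values of Rpl3l (left) and Rpl3 (middle) and their difference within each array (right), on the log2 scale. Each point is 1 array with its replicate number, and the bar is the group mean with its SD (n = 6). Rpl3l lies at 8.77 to 9.61 in infarcted arrays against 10.18 to 10.49 in sham arrays, Rpl3 at 10.97 to 11.43 against 10.21 to 10.72, and no panel has overlapping groups.

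The infarcted hearts were less alike in Rpl3l than the sham hearts, with a range of 0.84 against 0.31. Infarcted replicates 3 (8.77) and 5 (8.80) were the lowest, and replicates 2 (9.61) and 4 (9.50) the highest. For Rpl3 the ranges were 0.46 and 0.51. Infarcted replicates 3 (11.43) and 2 (11.34) were the highest in Rpl3, and replicate 6 (10.97) was the lowest. Infarcted replicate 3 thus had the lowest Rpl3l and the highest Rpl3, while replicate 2 was high in both.

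The rows of a gene gave the same direction. All 10 Rpl3l rows had a lower mean in infarcted hearts, and 9 of them had no overlap, where 3.22% of all named rows had infarcted arrays below sham arrays without overlap. Row 6, the brightest, ran from 11.33 to 11.52 in sham arrays with a median of 11.45, and from 10.07 to 10.84 in infarcted arrays with a median of 10.51. Its difference of -0.93 was the smallest in size of the 10. Row 3, the dimmest, ran from 6.70 to 7.53 in sham arrays with a median of 7.27, and from 5.23 to 6.27 in infarcted arrays with a median of 5.80. Its difference of -1.48 was the largest.

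Row 9 was the row with overlap. It ran from 7.19 to 8.01 in sham arrays and from 5.56 to 7.48 in infarcted arrays, where replicates 2 (7.48) and 4 (7.14) stood above the other 4 (up to 6.19). Row 10 read 5.35 in infarcted replicate 3, against 6.20 to 7.09 in the other infarcted arrays and at least 7.81 in sham arrays.

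The 3 Rpl3l rows with a sham mean under 8 (rows 3, 9 and 10) had differences from -1.48 to -1.27. The 6 rows with a sham mean over 10 had differences from -1.21 to -0.93. Across the 10 rows, which share arrays and a transcript, the difference went with the sham signal (Pearson r = 0.88, a description), so that dimmer rows had the larger decrease. Row 4, with a sham mean of 8.98, differed by -1.08. Infarcted replicate 5 had the lowest signal in 6 of the 10 rows, replicate 3 in 3 and replicate 2 in 1. Rows correlated with each other over the 6 infarcted arrays with a median r of 0.84 over 45 pairs of rows, and over the 6 sham arrays with 0.34.

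All 7 Rpl3 rows had no overlap, with infarcted arrays above sham arrays in each, where 4.88% of named rows did so. Row 4 had the largest difference (0.77) and ran from 9.19 to 9.78 in sham arrays with a median of 9.42, and from 10.01 to 10.50 in infarcted arrays with a median of 10.20. Row 7 had the smallest difference (0.56) but the widest gap between groups (0.29). It ran from 9.04 to 9.22 in sham arrays and from 9.51 to 9.98 in infarcted arrays. The closest approach of the groups was 0.12, in row 6. Infarcted replicate 3 was highest in 5 of the 7 rows and replicate 2 in 2, and replicate 6 was lowest in 5. Processed Rpl3 pseudogenes exist in the mouse (Rpl3-ps1 and Rpl3-ps2 in the RefSeq table), and whether probes of the Rpl3 rows also match them was not tested.

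**Figure D2:**
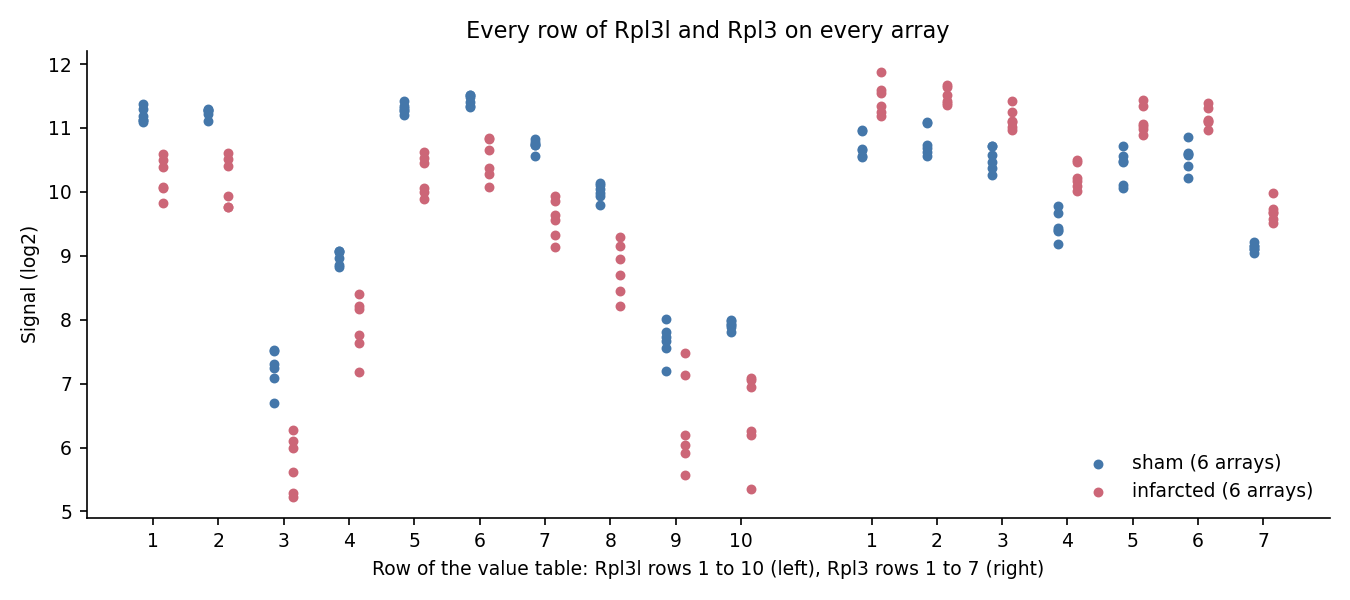
Log2 signal of each row of Rpl3l (left block) and Rpl3 (right block), numbered in the order of the table, with 6 sham arrays (blue) and 6 infarcted arrays (red) per row. Infarcted points lie below sham points in 9 of 10 Rpl3l rows, row 9 being the exception, and above them in 7 of 7 Rpl3 rows.

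Next came the question of whether the 2 genes moved against each other among hearts of the same group. The groups form separate clusters, so no coefficient was taken over all 12 arrays. In sham hearts Pearson r was -0.50 (exact permutation p = 0.311, adjusted p = 0.725, n = 6) and Spearman rho was -0.77 (exact permutation p = 0.103, adjusted p = 0.635). Without sham replicates 3 and 6, which lay farthest from the median of Rpl3l, r was -0.61 over 4 arrays. In infarcted hearts r was -0.16 (exact permutation p = 0.746, adjusted p = 0.949, n = 6) and rho was -0.14 (exact permutation p = 0.803, adjusted p = 0.937). Without infarcted replicates 3 and 5 that r was 0.74 over 4 arrays. With a single infarcted array left out it was 0.45 without replicate 3 and 0.01 without replicate 4. It stayed negative without replicate 1, 2, 5 (-0.30) or 6, so its sign rested mainly on replicate 3. Tests were two-sided, and p-values were adjusted over 14 relations. A relation between the genes within a group was thus not detectable with 6 hearts.

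**Figure D3:**
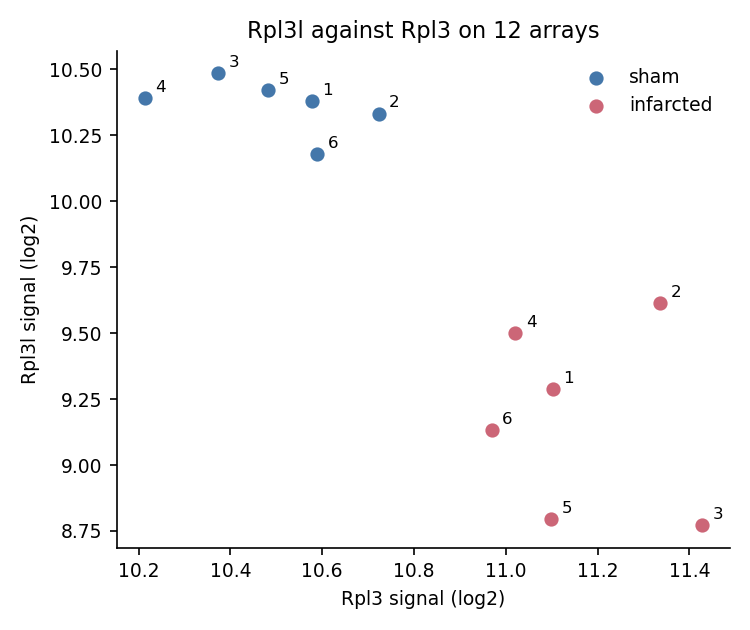
Rpl3l against Rpl3, both as log2 signal, with 1 numbered point per array. Sham arrays (blue) lie at upper left and infarcted arrays (red) at lower right, and within the groups r was -0.50 and -0.16.

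The other relations of that family set each gene against the mean deviation of cardiomyocyte markers, fibroblast markers and other ribosomal proteins. None passed after adjustment, and at an unadjusted p under 0.05 there were 0 of 14 by Pearson r. In infarcted hearts Rpl3l had r = 0.82 with the cardiomyocyte markers (exact permutation p = 0.0694, adjusted p = 0.337, n = 6), but -0.33 without replicates 3 and 5. With the other ribosomal proteins it had r = 0.76 (exact permutation p = 0.0722, adjusted p = 0.337, n = 6), and 0.72 without replicates 3 and 5. With the fibroblast markers it had r = -0.76 (exact permutation p = 0.0556, adjusted p = 0.337, n = 6) and rho = -0.89 (exact permutation p = 0.0333, adjusted p = 0.467), and r was -0.93 over the 4 arrays without replicates 3 and 5.

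The tissue was checked against markers of the cells it could hold. Cardiomyocyte markers were bright, with a median sham signal of 13.2 over 17 genes. Of these 17, 2 fell and none rose (limma, adjusted p under 0.05), where 20.3% of all genes passed in either direction, 10.2% lower and 10.1% higher. They were Tcap, which encodes telethonin of the Z-disc (-0.79, adjusted p = 0.000147), and Ckm, muscle creatine kinase (-0.32, adjusted p = 0.0409). The Ckm call was lost in 8 of 12 leave-out fits, each without a single array (adjusted p up to 0.0798). Such bright probes may be near the top of the measured range, which was 14.37.

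The mean deviation of the cardiomyocyte markers ran from 0.02 to 0.08 in sham arrays and from -0.12 to -0.02 in infarcted arrays. Its lowest values were those of infarcted replicates 3 (-0.12) and 5 (-0.11), the hearts with the lowest Rpl3l. All 17 markers had a difference closer to 0 than that of Rpl3l, which was chosen for its decrease. With this deviation subtracted array by array, Rpl3l ran from 10.10 to 10.46 in sham arrays and from 8.89 to 9.66 in infarcted arrays, a difference of -1.06 ± 0.14 (SE, n = 6 per group). This difference is that of Rpl3l less the subtracted shift, which was -0.12. The part of cardiomyocyte content in the Rpl3l signal was not tested. In bulk tissue, fewer cells of a type and less RNA per cell cannot be told apart.

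Markers of other cells were read in the same way, where 10.1% of all genes passed as higher and 10.2% as lower. Of 13 fibroblast markers 11 rose, among them Mfap5 (2.37), Postn (3.08) and Col1a1 (2.55). Their mean deviation ran from -0.81 to -0.54 in sham arrays and from 0.52 to 0.94 in infarcted arrays, highest in replicate 3. Of 12 macrophage markers 11 rose, and those with the smallest p were Lgals3 (1.86), Mpeg1 (1.66) and C1qb (0.75), with mean deviations from -0.58 to -0.30 and from 0.20 to 0.54. Of 8 smooth muscle markers 3 rose, Tagln (0.74), Cnn1 (1.05) and Acta2 (0.54), with mean deviations from -0.40 to -0.04 and from 0.08 to 0.26. The other 5 did not pass, with Myh11 at -0.14, Mylk at -0.01, Lmod1 at 0.02, Des at 0.16 and Smtn at 0.20. Of 10 endothelial markers 1 rose, Erg (0.35), whose call was lost in 6 of 12 leave-out fits (adjusted p up to 0.0599), and the mean deviations overlapped (-0.21 to 0.10 and -0.09 to 0.17). Rpl3 is made by these cells too. With the mean deviation of the fibroblast markers subtracted array by array, Rpl3 turned from higher to lower in infarcted arrays. It then ran from 10.89 to 11.43 in sham arrays and from 10.25 to 10.80 in infarcted arrays, a difference of -0.65 ± 0.11 (SE, n = 6 per group). This turn follows from the size of the subtracted shift, which was 1.32. Any gene with a smaller rise would turn in the same way. The part of cell content in the Rpl3 signal was not tested.

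Rpl3l is also expressed in skeletal muscle, which could enter from the chest wall. Of 13 skeletal muscle markers 1 rose, Mybpc2 (0.53), and none fell, where 10.1% of all genes rose and 10.2% fell. The fast myosins Myh1, Myh2 and Myh4 had sham means of 4.85, 5.51 and 4.91 and infarcted means of 4.84, 5.78 and 5.15, where the 30th percentile of all rows was 5.58. The markers' mean deviation lay between -0.28 and 0.14 on 11 arrays and at 0.87 in infarcted replicate 5. That heart was also highest in adipocyte markers (1.33), and infarcted replicate 4 was highest in atrial markers (1.47). Of 6 atrial markers 2 rose, Nppa (2.04) and Dkk3 (1.59), and of 9 adipocyte markers 1 fell, Lipe (-0.36). Without infarcted replicates 4 and 5, Rpl3l differed by -1.16 and Rpl3 by 0.72.

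The other cytosolic ribosomal proteins moved little beside these 2 genes. Large subunit proteins other than Rpl3 were measured for 38 of 46 genes, with a median difference of 0.05 against -0.04 over all genes. Of the 38, 5 rose and none fell (13.2%, below the 20.3% of all genes that passed). Rpl11, Rpl5, Rpl28 and Rpl6 were dim, with sham means of 2.91, 4.82, 4.82 and 5.39, so that little could be detected for them. Rpl12, of the stalk base, rose by 0.70 (6.16 ± 0.20 to 6.86 ± 0.13, SD, n = 6; adjusted p = 0.000138) and was the single ribosomal protein with a larger difference than Rpl3. Rpl13a rose by 0.24 (adjusted p = 0.0193) and Rpl26 by 0.37 (adjusted p = 0.0217), and the Rpl26 call was lost without infarcted replicate 6 (adjusted p = 0.052) and with the mean over rows. Without infarcted replicates 4 and 5 there were 2 large subunit genes that passed, both higher.

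Small subunit proteins were measured for 24 of 33 genes, with a median difference of -0.02. Of the 24, 1 rose and 1 fell (8.33%, below the 20.3% of all genes that passed). They were Rps20 (0.23, adjusted p = 0.0472) and Rps23 (-0.34, adjusted p = 0.0493), and each call was lost in 10 of 12 leave-out fits (adjusted p up to 0.097 and 0.102). The mean deviation over the 62 proteins of both subunits ran from -0.06 to 0.03 in sham arrays and from -0.01 to 0.05 in infarcted arrays. With this deviation subtracted, Rpl3 differed by 0.63 ± 0.10 (SE, n = 6 per group), with no overlap between 10.24 to 10.70 in sham arrays and 10.96 to 11.44 in infarcted arrays. The value of 0.63 is the difference of Rpl3 less the shift of the subtracted deviation, which was 0.04. With the deviation of the fibroblast markers subtracted in its place, the difference was -0.65, a turn set by their shift of 1.32, as above. Ribosomal protein genes have many processed pseudogenes, and their row values are uncertain for that reason. Rps18 was dim (5.51 in sham arrays), so that little could be detected for it.

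Second genes of other ribosomal proteins were read for the same behaviour. None of 7 passed (limma, 0 also at an unadjusted p under 0.05), where 20.3% of all genes passed and 6519 of 20352 had such an unadjusted p. The differences were -0.12 for Rpl22l1, -0.09 for Rpl10l, a testis form, -0.06 for Rpl39l, 0.03 for Rps4l, and -0.01 each for Rpl36al, Rps27l and Rpl7l1. Rpl22l1, Rpl10l and Rpl39l were dim, with sham means of 4.79, 5.39 and 3.32, so that little could be detected for them.

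Genes that handle the L3 protein before it enters the subunit differed little. Grwd1, the dedicated chaperone of newly made L3, had means of 6.57 ± 0.09 and 6.70 ± 0.15 (SD, n = 6) and differed by 0.13 (adjusted p = 0.288). Mettl18, which methylates a histidine of L3, was dim at 4.85 ± 0.19 and 4.77 ± 0.37 and differed by -0.08 (adjusted p = 0.775). Eif6, which keeps immature large subunits from joining small ones, differed by 0.04 (adjusted p = 0.721). Nop2, an rRNA methyltransferase, differed by 0.04, Nop56, of the snoRNP core, by -0.06, Rrp1 by -0.10, Rrp1b by 0.00 and the helicase Ddx24 by -0.13. None of these 8 genes passed (limma, 0 also at an unadjusted p under 0.05). Over all genes 20.3% passed, and 6519 of 20352 had such an unadjusted p. With only 8 genes, a count of 0 says little beside these shares.

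In the wider list of ribosome assembly and rRNA transcription, 6 of 54 genes fell and 2 rose (14.8%, below the 20.3% of all genes that passed), with a median difference of -0.01. The 3 with the smallest p belong to RNA polymerase I, which transcribes rRNA, or to its promoter factor. Polr1a, its largest subunit, fell by 0.55 (8.84 ± 0.20 to 8.29 ± 0.18, SD, n = 6; adjusted p = 0.00206). Taf1a, of its promoter selectivity factor, fell by 0.35 (adjusted p = 0.00255) and Polr1b by 0.29 (adjusted p = 0.00678). Rrn3, of the same machinery, also passed as lower (-0.23, limma, adjusted p = 0.0122). The remaining genes of that machinery on the list had small positive differences and did not pass. The values were 0.03 for Polr1c, 0.05 for Polr1d, 0.10 for Polr1e, 0.11 for Ubtf, 0.06 for Taf1b and 0.14 for Taf1d. Nop58, of the snoRNP core, rose by 0.53 (adjusted p = 0.0154), a call that ended when dim rows were left out. Without infarcted replicates 4 and 5 there were 4 that fell and 1 that rose.

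Among 39 translation factors 3 rose and 4 fell (17.9%, near the 20.3% of all genes), with a median of -0.07. With arrays centred on their medians the split was 2 and 12. Eef1a1, which brings aminoacyl-tRNA to the ribosome, rose by 0.55 (12.34 ± 0.05 to 12.89 ± 0.18, SD, n = 6; adjusted p = 0.000303). Pabpc1, the poly(A)-binding protein, rose by 0.38 (adjusted p = 0.00479), and Eif3m, of initiation factor eIF3, fell by 0.28 (adjusted p = 0.0154), a call that ended when dim rows were left out. With the replicate number as a block 2 rose and 1 fell.

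**Figure D4:**
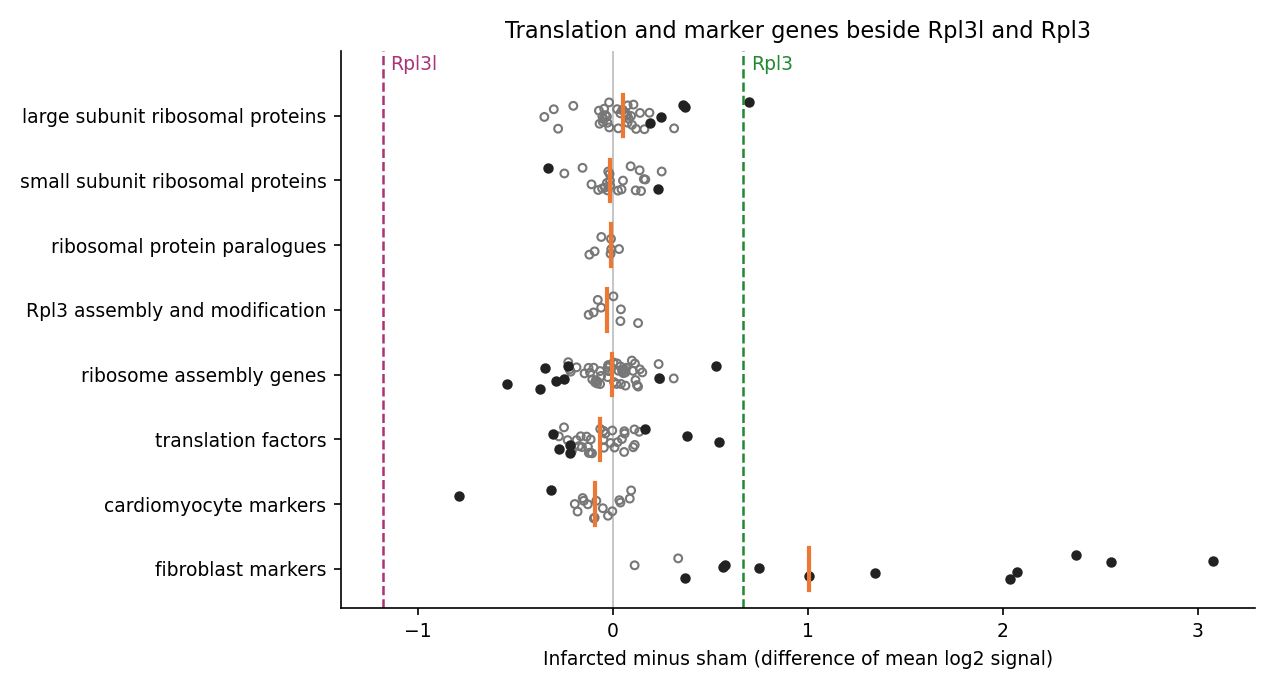
Differences of mean log2 signal, infarcted minus sham, for genes of 8 lists, with filled points for genes past the threshold (limma, adjusted p under 0.05), open points for the others and an orange bar at each list's median. Dashed lines mark Rpl3l (-1.18) and Rpl3 (0.67). Rpl3l lies below the genes of every list drawn, and Rpl3 lies near Rpl12 at the upper end of the large subunit proteins.

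Rpl3l and Rpl3 are a muscle form and a general form of a single protein, and 12 other such pairs were read beside them. These 12 pairs were chosen with earlier results of these data known. The muscle form had the lower difference in 11 of them, and Cox7a1 and Cox7a2 both differed by -0.29. The muscle form passed as lower and the general form as higher in 4 pairs. Over all genes 10.2% passed as lower and 10.1% as higher. Pfkm and Pfkp, of phosphofructokinase, differed by -0.34 and 1.21 (adjusted p = 0.00248 and 6.11e-07). Eef1a2 and Eef1a1, of the elongation factor that works on the ribosome, differed by -0.22 and 0.55 (adjusted p = 0.0224 and 0.000303).

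Ckm and Ckb, of creatine kinase, differed by -0.32 and 0.37 (adjusted p = 0.0409 and 0.00879). Pgam2 and Pgam1, of phosphoglycerate mutase, differed by -0.25 and 0.40 (adjusted p = 0.0233 and 0.00602), and the Pgam2 call was lost without sham replicate 3 or infarcted replicate 5 (adjusted p up to 0.0519) and with the mean over rows. The Eef1a2 and Pgam2 calls also ended with the replicate number as a block.

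In the other pairs at most 1 form moved that way in the reported comparison. In other settings the muscle forms Myl3, Eno3 and Slc25a4 passed as lower with the mean over rows, with centred arrays and with limma's trended, robust spread, and Cox8b with the last 2 of these. Myl3 and Myl6 then moved in opposite directions in all 3 of these settings, and Eno3 and Eno1 in the first and the last. Myl6, the general myosin light chain, rose by 0.67, while Myl3 differed by -0.13 (adjusted p = 0.148). Eno1 rose by 0.24, a call that was lost in 7 of 12 leave-out fits (adjusted p up to 0.074), and Eno3 differed by -0.16 (adjusted p = 0.117). Cox6a2 fell by 0.27, with 0.03 for Cox6a1, and Pygm fell by 0.32, with -0.12 for Pygb. Cox7a1 and Cox7a2 both fell by 0.29, and the Cox7a2 call ended with the mean over rows and when dim rows were left out. For Cox8b and Cox8a the values were -0.15 and 0.08, and for Slc25a4 and Slc25a5 they were -0.13 and 0.13, none past the threshold.

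Ampd1 and Ampd2, of AMP deaminase, both rose, by 0.26 and 0.55. Ampd1 was dim (4.51 in sham arrays), and its call was lost in 9 of 12 leave-out fits (adjusted p up to 0.0936). Over the 24 genes 8 rose and 8 fell, where 10.1% of all genes rose and 10.2% fell. With arrays centred on their medians 6 rose and 12 fell. The median of muscle minus general form was -0.35 over the 12 pairs and the lowest, for Pfkm and Pfkp, was -1.56, beside -1.85 for Rpl3l and Rpl3.

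**Figure D5:**
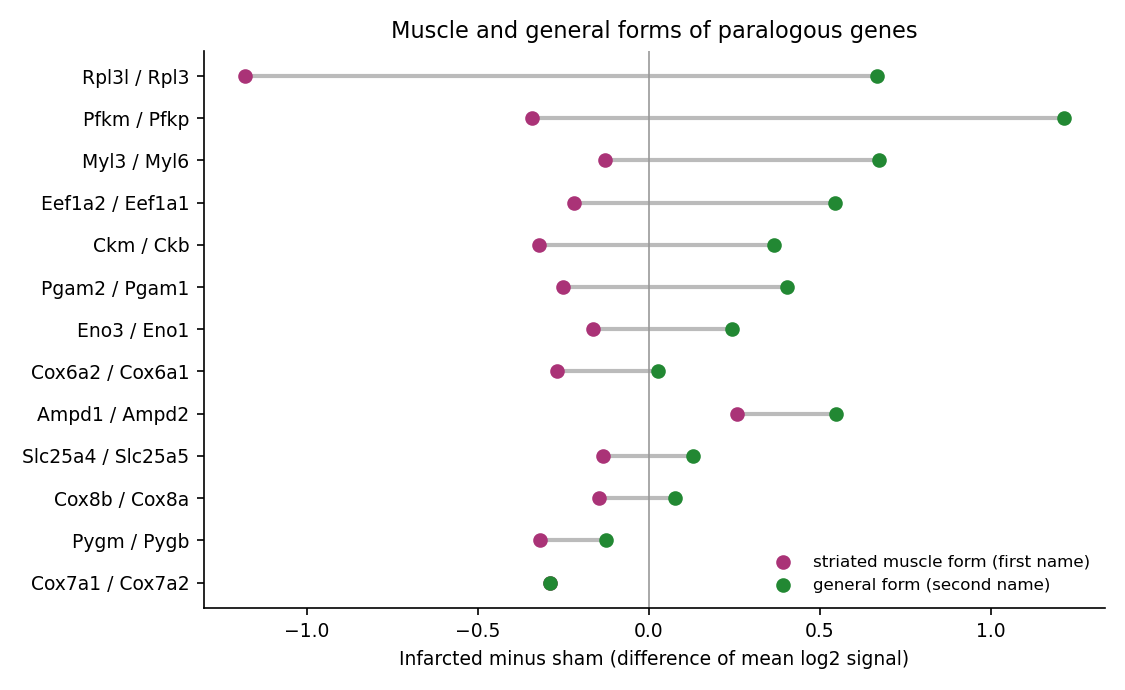
Differences of mean log2 signal, infarcted minus sham, of the striated muscle form (purple) and the general form (green) of Rpl3l and Rpl3 and of 12 other pairs, joined by a line. The muscle form lies at or left of the general form in each pair, and the widest pairs are Rpl3l with Rpl3 (-1.18 and 0.67) and Pfkm with Pfkp (-0.34 and 1.21).

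The 3 protein-coding genes on each side of the members were read as well. Beside Rpl3l, Ndufb10, a complex I subunit, fell by 0.44 (adjusted p = 0.00234). Rps2 (-0.16), Rnf151 (-0.05), Msrb1 (0.15), Hs3st6 (-0.03) and Meiob (-0.11) did not pass. Beside Rpl3, Cbx7, a Polycomb protein, fell by 0.55 (adjusted p = 3.78e-05), opposite in sign to Rpl3. Pdgfb (-0.01), Apobec3 (0.26), Syngr1 (-0.04), Tab1 (-0.24) and Mgat3 (-0.13) did not pass.

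Genes whose signal followed Rpl3l from heart to heart were ranked by Pearson r over the 12 arrays after the mean of each group was taken away, among 10175 genes of at least median signal. The highest were Pstpip2, an adaptor protein (r = 0.96), Ndufa2, of complex I (0.96), Itgb1bp2, melusin of muscle (0.94), Ndufb5, of complex I (0.93), and Mrpl37, of the mitochondrial ribosome (0.93). In the comparison of groups these 5 fell by 0.28, 0.31, 0.33, 0.28 and 0.39 (adjusted p from 0.00633 to 0.0238). Over all genes, dim ones included, 10.2% passed as lower. The r values are the largest of many coefficients, the points share arrays, and no p is given for them. Rpl3l spread more in infarcted arrays (SD 0.35) than in sham arrays (SD 0.10), so the infarcted arrays weigh more in r. Whether r holds without infarcted replicates 3 and 5 was not tested.

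For Rpl3 the highest were Itm2a, a membrane protein (0.89), Cyria (0.87), the transcription factor Sp1 (0.86), Sil1, an endoplasmic reticulum exchange factor (0.85), and Vps33b (0.84). Itm2a rose by 0.98 (adjusted p = 0.000127), and the other 4 differed by 0.26, 0.14, -0.23 and 0.05 and did not pass. Rpl3 itself stood at rank 7856 for Rpl3l, with r = -0.21 within groups.

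The 12 arrays had medians from 6.997 to 7.03 in sham and from 7.04 to 7.06 in infarcted hearts, and correlated pairwise between 0.956 and 0.979 with no identical pair. In the fit over all genes 2050 rose and 2074 fell, and with arrays centred on their medians 1748 rose and 2956 fell. The number of arrays, 6 per group, limits the precision of each value.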

How the data were processed

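Per the labels, total RNA was extracted with Trizol, converted with a whole-transcript kit and hybridised to one-colour arrays with biotin label. The authors' deposited values are taken as log2 signal from their range (1.52 to 14.37), and the log base is not stated. The tool Affymetrix Power Tools is named in the submitters' processing notes; for background correction and summary method the labels give nothing. The nearly equal array medians mean that a change common to all genes would not be seen. No label gives a batch or hybridisation date, so none was examined.

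A gene's value was the median over its rows with 1 symbol (212097 rows, 20352 genes). Of the platform symbols, 17621 were current, 2742 were updated through RefSeq synonyms and 53 were kept. All genes were fitted with limma 3.58.1 in R 4.3.3 (two-sided, Benjamini-Hochberg over all genes, threshold 0.05, no filter), a script tested on simulated data. Adjusted p-values of genes come from that fit, and differences are infarcted minus sham. Log2 signals include background, and how it affects dim rows was not tested. A mean deviation is the mean, over a list, of each gene's value minus its mean over the 12 arrays. Relations within a group used exact permutation tests over 720 orderings.

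Replicate numbers 1 to 6 occur in both groups and no label ties them, so no block was used. The members, gene lists and pairs were chosen with earlier results of these data known. Genes were named by rule: both members, up to 3 members past the threshold per list and the strongest in the other direction (otherwise the member with the smallest p), every gene of the short lists and pairs, the 5 most alike genes, and 3 protein-coding neighbours on each side. The intronic snoRNAs Snord43 and Snord83b, the pair Adss1 and Adss2, and the listed ribosomal proteins without a row of their own were not analysed here. Gene values were also formed from means, without dim rows (under the 30th percentile), after centring or quantile normalization, with a block, and with arrays left out.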

Additional observations from a re-analysis of the deposited data

Results flagged for a closer look

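A reading far from the other 5 of its group was searched for in 119 genes, rows, differences and mean deviations, which gives 238 groups of 6 arrays. The highest or lowest array was set apart where its gap to the nearest array passed Dixon's 95% critical value for 6 samples, which chance gives in about 1 in 20 groups. There were 11 such readings, which is not above that rate.

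Of the members' values there was 1. Rpl3l row 7 read 10.56 in sham replicate 6, against 10.73 to 10.82 in the other sham arrays, and it still lay above every infarcted array (up to 9.94).

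Infarcted replicate 5 stood apart in markers of skeletal muscle (mean deviation 0.87, others up to -0.05) and of adipocytes (1.33, others up to 0.20). Sham replicate 3 stood apart in smooth muscle markers (-0.40, others from -0.17). Without infarcted replicate 5, Rpl3l differed by -1.10 and Rpl3 by 0.68.

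The other readings were of named genes. Ckm read 11.38 in infarcted replicate 3 (others from 11.95), the array with the lowest Rpl3l. Rpl12 read 6.53 and Nop2 read 8.16 in sham replicate 3 (others up to 6.19 and 7.92). Rps23 read 6.36 in sham replicate 2 (others from 6.73) and Rpl7l1 read 9.12 in sham replicate 1 (others from 9.28). Ampd1 read 4.53 in infarcted replicate 1 (others from 4.77) and Pdgfb read 9.32 in infarcted replicate 2 (others up to 9.14).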

How the results depend on the processing

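The differences of Rpl3l, Rpl3 and Rpl3l minus Rpl3 kept their sign in the 18 alternatives run for each (-1.27 to -1.10, 0.61 to 0.72 and -1.94 to -1.71), and the within-group relation of the genes stayed past no threshold. Its r ran from -0.63 to -0.16 in sham and from -0.63 to 0.45 in infarcted arrays. The counts of listed genes depended more on the setting, and the cause was not tested beyond the fewer arrays. Without infarcted replicates 4 and 5 there were 2 large subunit proteins (5 in the reported comparison), 0 small subunit proteins (2 reported, 3 at an unadjusted p under 0.05 in limma), 5 assembly genes (8 reported) and 3 translation factors (7 reported). With the mean over rows there were 5 small subunit proteins and 12 translation factors. Translation factors numbered 14 with centred arrays and 12 after quantile normalization. With a single array left out, small subunit proteins ran from 0 to 1 and translation factors from 4 to 8. With the replicate number as a block, translation factors numbered 3, all other lists stayed within 1.5 times their count, and 3802 of all genes passed (4124 without it). Same-numbered arrays correlated between -0.05 and 0.10 in their deviations, and 2 of 6 sham arrays matched their own number best. Dim signal limits what Mettl18, Rpl39l, Rpl11, Rpl5, Rpl28, Rpl6, Rps18 and the skeletal muscle markers can show.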
